A study of Homo sapiens with 4 samples.

Results

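Krüppel-like factors (KLFs) were examined in KYSE410, an established cell line of human esophageal squamous cell carcinoma. The members are 10 genes, KLF3, KLF4, KLF5, KLF6, KLF7, KLF9, KLF10, KLF11, KLF12 and KLF13. A probe set, the group of short probes that reads one transcript region on the array, was taken for a member where the platform annotation gave that gene symbol alone, which found 38 probe sets of all 54675. Total RNA had been measured on 4 Affymetrix 3' expression arrays, 2 from untreated cells and 2 from cells given 20 nM YM155 for 6 h, all grown in RPMI medium with fetal bovine serum and antibiotics. YM155 is a small molecule first described for lowering survivin. The labels conflict on the drug, and with it on dose and time. The treatment protocol names cisplatin at another dose and time, and the design text names both drugs. Each YM155 sample's own treatment label, source name and the series title name YM155, which is used here. Since KYSE410 is a single cell line and the labels name no separate cultures and do not explain the codes B1 and B2 in the YM155 titles, a p-value here covers only array-to-array spread, possibly technical.

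KLFs are transcription factors that bind CACCC boxes and GC-rich sites through zinc fingers at the C-terminus and differ in the rest of the protein. KLF4, KLF5, KLF6 and KLF7 act mainly as activators. KLF3 and KLF12 repress transcription by recruiting the corepressor CtBP, while KLF9, KLF10, KLF11 and KLF13 can repress through the SIN3A complex. In stratified squamous epithelium such as the esophagus, KLF5 is known from the proliferating basal layer and KLF4 from the differentiating layers above it.

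The arrays within the untreated group stood further apart than those within the YM155 group. Of the 32768 probe sets whose mean log2 signal reached the filter limit of 3.32, the 40th percentile, the untreated pair differed at least 2-fold at 1690 and the YM155 pair at 56. By the same count untreated replicate 1 stood closer to YM155 replicates 1 and 2 (739 and 850 probe sets) than it did to its own group, and untreated replicate 2 stood furthest from them (1811 and 2140). The log2 ratio of the 3' to the 5' control probe set of ACTB, a measure of RNA integrity, was 2.72 and 2.18 in untreated replicates 1 and 2 and 2.10 and 2.95 in YM155 replicates 1 and 2. The same ratio for GAPDH was far lower, at 0.042 and 0.043 without drug and 0.033 and 0.21 with YM155. YM155 replicate 2 had the highest ratio for both control genes. Squamous markers were bright on every array, with the keratin gene KRT5 at 10.86 and 10.74 log2 without drug and 11.19 and 11.19 with YM155. Of 6 squamous markers listed, KRT6A and TP63 had no probe set annotated with that symbol alone. The 4 that had one (KRT5, KRT14, SFN and DSG3) were higher on both YM155 arrays than on both untreated arrays, as were 19.3% of all genes tested. By limma, 2 of these 4 markers had an unadjusted p under 0.05 and 0 passed the adjusted threshold. Their mean signal ran from 9.87 to 9.91 log2 without drug and from 10.42 to 10.44 with YM155. Mean signals of the other marker lists stayed low on all arrays, from 3.91 to 4.07 log2 for 5 fibroblast, 2.63 to 2.83 for 3 leukocyte, 3.22 to 3.34 for 4 endothelial and 3.62 to 3.77 for 5 glandular markers. In bulk RNA, fewer cells of a type and less RNA per cell cannot be told apart. The part of RNA integrity and of the squamous markers in the KLF values was not tested.

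At the level of genes, KLF6 and KLF4 were the members with the largest positive differences after YM155, KLF13 and KLF7 those with the largest negative ones in the brightest probe set, and no KLF passed the test. When the probe sets of each gene were averaged, KLF3 was the most negative member at −0.43 (by limma, unadjusted p = 0.0157, adjusted p = 0.284), beyond KLF13 at −0.29 and KLF7 at −0.20. KLF4 (0.59) and KLF5 (0.42) also had an unadjusted limma p under 0.05 by that rule, both higher. In KLF3, untreated replicate 2 minus replicate 1 was −1.27 log2 in the brightest probe set and 0.79, 0.21 and 0.71 in the others. Averaging partly cancels this spread, so the p of the average does not measure it. The brightest KLF3 probe set alone had an unadjusted limma p of 0.766. Each gene was read by its probe set of highest mean signal and tested with limma among 14043 genes, of which 0 passed an adjusted p under 0.05 (0%). All 10 members were tested, each through at least 1 of its probe sets. Of them 5 had positive and 5 negative differences, where 47.1% of all genes had positive and 52.9% negative ones. Their median difference was −0.0079 log2, against −0.015 over all genes. The arrays did not overlap between groups for 3 higher members (KLF4, KLF6 and KLF11) and 1 lower one (KLF13), where 19.3% and 25.6% of all genes did so. At an unadjusted p under 0.05 there were 2 members, KLF4 and KLF6, both higher, where 5.23% of genes were higher and 7.48% lower by that rule. The histogram of differences over all genes shows 8 of the 10 members within the bulk of genes and KLF4 and KLF6 to its right.

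**Figure D1:**
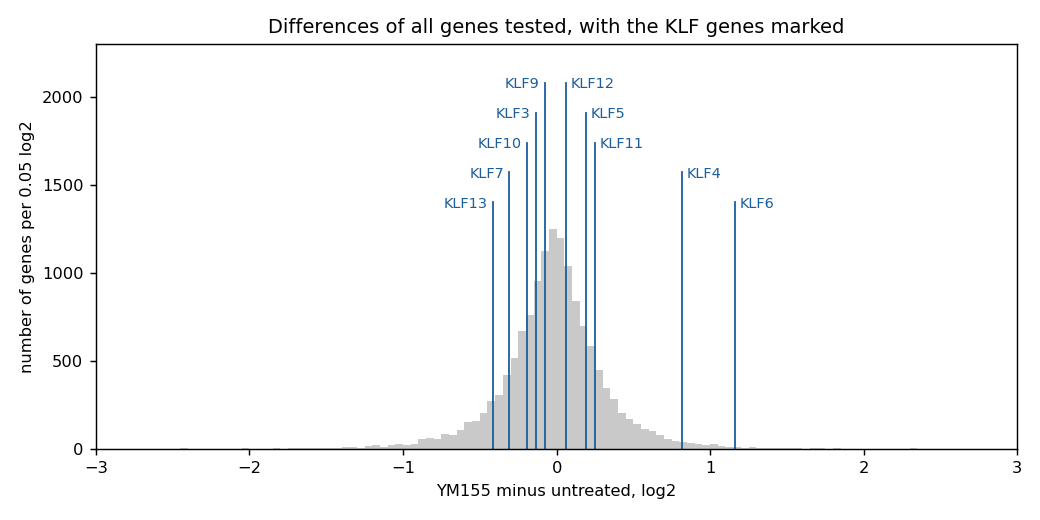
Histogram of the log2 difference, YM155 minus untreated (x axis), over 14043 genes (y axis, number of genes per bin of 0.05 log2), with a vertical line at each KLF gene; line heights only separate the names. KLF6 at 1.16 and KLF4 at 0.82 lie in the right tail, at percentiles 99.5 and 98.3 of all genes, and the other members lie between −0.42 and 0.25.

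The promoters of KLF4, KLF6 and KLF13 are shown because these were the members with the largest differences whose arrays did not overlap. They are the 250 bases before the annotated start in RefSeq (GRCh38.p14), read 5' to 3' on the gene's strand: chr9:107489770-107490019 (minus strand), chr10:3785210-3785459 (minus strand) and chr15:31326585-31326834 (plus strand). Capitals mark GGGCGG, the GC box of SP and KLF proteins, and CACCC, the box for which the family is known, each on either strand (CCGCCC and GGGTG on the other), and the motifs may overlap.
KLF4: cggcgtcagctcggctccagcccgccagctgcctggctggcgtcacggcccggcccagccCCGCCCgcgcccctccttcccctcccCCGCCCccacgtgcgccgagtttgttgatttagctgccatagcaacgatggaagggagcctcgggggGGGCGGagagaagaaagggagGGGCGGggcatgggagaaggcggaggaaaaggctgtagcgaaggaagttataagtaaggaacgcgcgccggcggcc
KLF6: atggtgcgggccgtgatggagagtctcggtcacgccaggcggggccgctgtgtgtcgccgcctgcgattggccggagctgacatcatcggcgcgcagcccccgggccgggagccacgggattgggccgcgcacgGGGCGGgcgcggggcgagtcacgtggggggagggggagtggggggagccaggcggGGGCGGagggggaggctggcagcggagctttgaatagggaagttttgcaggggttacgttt
KLF13: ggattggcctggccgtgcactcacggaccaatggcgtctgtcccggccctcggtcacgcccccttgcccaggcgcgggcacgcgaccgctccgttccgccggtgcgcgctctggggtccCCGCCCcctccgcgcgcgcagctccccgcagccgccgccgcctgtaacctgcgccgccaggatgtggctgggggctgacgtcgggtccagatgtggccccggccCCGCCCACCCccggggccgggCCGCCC

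The KLF4 window held 4 GC boxes, starting 190, 164, 97 and 76 bases before the annotated start, and the KLF6 window 2, at 116 and 61 bases. The KLF13 window held 3, at 131, 27 and 6 bases, and 1 CACCC at 22 bases, whose first base is the last base of a GC box. At least 1 GC box was present in 42.6% and CACCC in 54.7% of the 35116 promoters of the same length in the table. The cyclic AMP response element TGACGTCA, TATAAA and the CArG box, the element of serum response factor, were also searched on both strands and had no match in these 3 windows; they were present in 1.65%, 10.7% and 1.16% of all promoters. Of the 10 members, 8 had windows that were used, with 16 start sites in all, and KLF3 and KLF10 had none. Start sites on chromosome 8 were left out for members, though not from the shares over all promoters. Over these 16 windows GC boxes were found in 8, from 7 members, and CACCC in 8, from 5 members. A CArG box was found in 1 window, of KLF7, TGACGTCA in 1, of KLF11, and TATAAA in 1, of KLF5. A match is a description of letters in these windows, not evidence of binding.

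Among the activators KLF4, KLF5, KLF6 and KLF7, 13 of 14 probe sets reached the filter limit, and 9 of these had positive and 4 negative differences. Both YM155 arrays lay above both untreated arrays at 5 of the 13 and below them at 0. Of these 5, 3 were probe sets of KLF6 and 1 each of KLF4 and KLF5. Over all probe sets past the limit the corresponding shares were 19.4% higher and 23.9% lower. KLF6, a zinc-finger factor described as a tumor suppressor, was read by 5 probe sets. Its brightest, 1555832_s_at, was at 9.25 and 10.19 log2 without drug and at 10.96 and 10.79 with YM155 (replicate 1 is always given before replicate 2). Both YM155 arrays were above both untreated arrays, and untreated replicate 1 was the lowest of the 4. The untreated mean was 9.72 ± 0.67 (SD, n = 2) and the YM155 mean 10.88 ± 0.12 (SD, n = 2), which differ by 1.16 ± 0.33 log2 (SE), or 2.23-fold (by limma, adjusted p = 0.303).

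The KLF6 difference was unequal against each untreated array, at 1.63 log2 against untreated replicate 1 and 0.69 against untreated replicate 2. Probe set 224606_at read 8.22 and 9.28 without drug and 9.96 and 9.65 with YM155, a difference of 1.06 ± 0.38 (SE). Probe set 208961_s_at read 7.87 and 9.10 without drug and 9.61 and 9.17 with YM155, a difference of 0.90 ± 0.44 (SE), of which only 0.29 remained against untreated replicate 2. These 3 probe sets thus had the same order of groups and the same low array. In 208960_s_at, by contrast, the groups overlapped, at 6.37 and 7.72 without drug and 8.50 and 7.32 with YM155, so its difference of 0.87 ± 0.60 (SE) was 1.54 against one untreated array and 0.19 against the other. The dimmest, 211610_at, lay between 3.73 and 4.07 on all arrays with a difference of −0.074. Unadjusted p over all probe sets was under 0.05 for 1555832_s_at and 224606_at, and adjusted p was 0.375 and 0.435.

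KLF4, a factor of epithelial differentiation and one of the factors used to reprogram somatic cells, had the closest agreement within groups of the larger differences. Its brighter probe set 221841_s_at was at 8.96 and 9.02 log2 without drug and at 9.86 and 9.75 with YM155. The arrays fell into separate pairs with narrow spread, with means of 8.99 ± 0.036 (SD, n = 2) and 9.81 ± 0.079 (SD, n = 2). The difference was 0.82 ± 0.13 log2 (SE), or 1.76-fold, with an unadjusted p of 0.00175 in limma and an adjusted p of 0.184. It was 0.84 against untreated replicate 1 and 0.79 against untreated replicate 2. The second probe set, 220266_s_at, read 6.01 and 6.14 without drug and 6.78 and 6.10 with YM155. There the YM155 arrays themselves stood 0.69 apart, the groups overlapped, and the difference was 0.36 ± 0.26 (SE; by limma, adjusted p = 0.657).

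KLF5, which promotes proliferation of basal epithelial cells, differed little in its brighter probe set and more in its dimmer one. In 209212_s_at the arrays read 9.04 and 8.91 log2 without drug and 9.34 and 8.99 with YM155, with overlap and a difference of 0.19 ± 0.17 (SE; by limma, adjusted p = 0.713). In 209211_at they read 5.30 and 4.96 without drug and 5.73 and 5.82 with YM155. The groups did not overlap there, and the difference was 0.64 ± 0.17 (SE; by limma, unadjusted p = 0.0155, adjusted p = 0.351 over all probe sets). Unlike those of KLF6, both KLF5 probe sets were lower on untreated replicate 2 than on untreated replicate 1.

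KLF7, a factor best known from neurons, was set apart by a single array. Its brightest probe set 204334_at read 6.78 and 7.62 log2 without drug and 6.86 and 6.92 with YM155. Untreated replicate 2 was high, while untreated replicate 1 lay just below the YM155 arrays, so that the difference of −0.31 ± 0.30 (SE; by limma, adjusted p = 0.726) was 0.11 against untreated replicate 1 and −0.73 against untreated replicate 2. The same split was wider in 238482_at, at 4.74 and 6.44 without drug and 5.22 and 5.22 with YM155, and in 1555420_a_at, at 4.46 and 6.04 without drug and 5.06 and 4.89 with YM155. In both the YM155 arrays lay between the untreated arrays. The remaining probe set past the limit, 240432_x_at, lay between 5.28 and 5.75 on all arrays with a difference of 0.18, and 238517_at was below the limit.

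**Figure D2:**
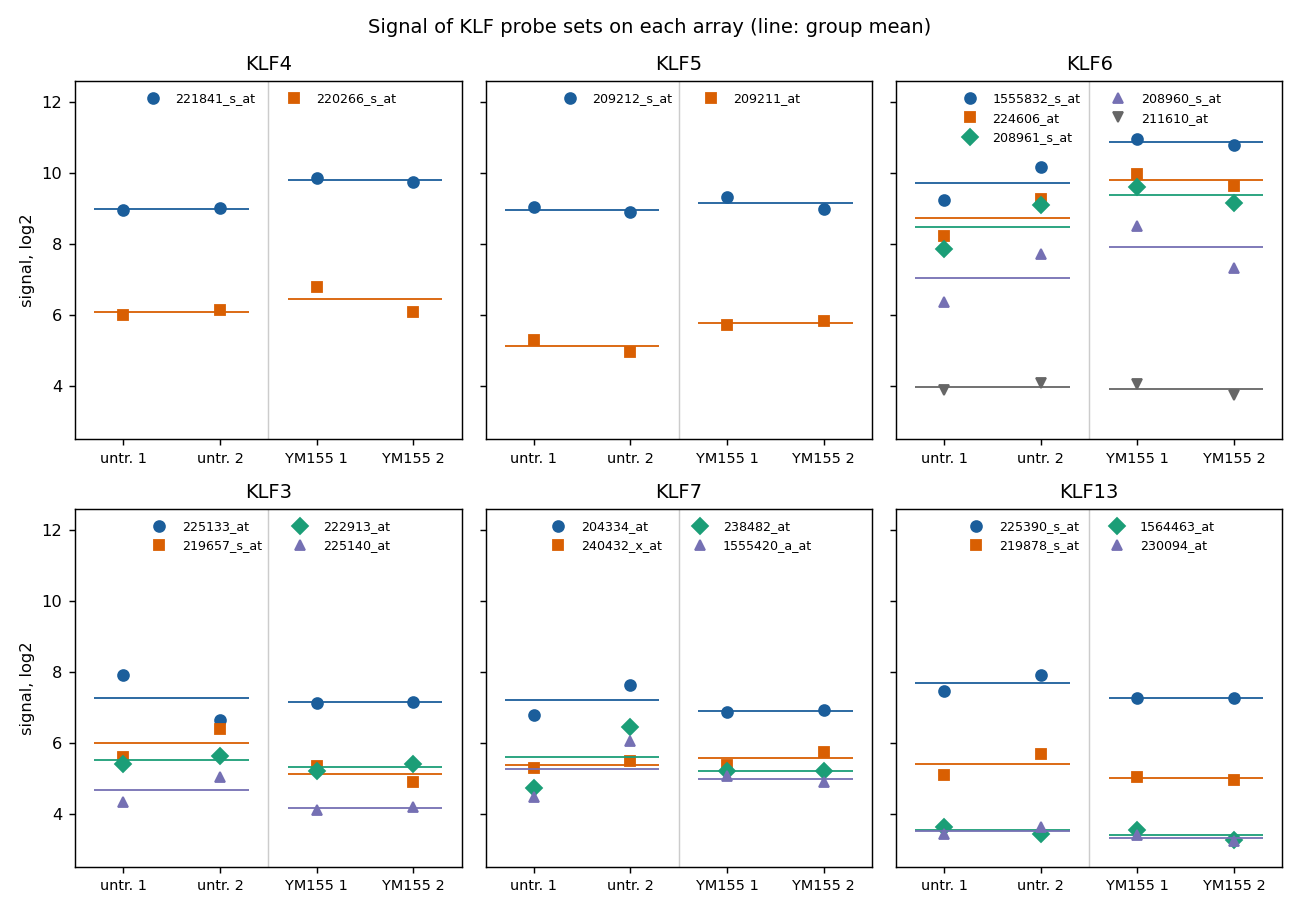
Log2 signal (y axis) of every probe set past the filter limit for KLF4, KLF5, KLF6, KLF3, KLF7 and KLF13 on the 2 untreated and the 2 YM155 arrays (x axis); each symbol is 1 array and each horizontal line the mean of 2 arrays. The KLF4 probe set at 8.96 and 9.02 in untreated arrays moved to 9.86 and 9.75 without overlap, untreated replicate 1 is the lowest array in 4 of the 5 KLF6 probe sets, and untreated replicate 2 is the highest in 3 of the 4 KLF7 probe sets. Heights of different probe sets are not comparable, since probes differ in how strongly they bind.

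The CtBP-recruiting repressors KLF3 and KLF12 had mostly negative differences, at 6 of the 7 probe sets past the limit, and the remaining 5 of their 12 probe sets were too dim to test. Lower values without overlap were found at 3 of the 7, all of KLF3, and higher ones at 0, against 23.9% and 19.4% of all probe sets. KLF3, a repressor with roles in blood and fat cells, had probe sets that went against each other within the untreated group. The brightest, 225133_at, read 7.91 and 6.64 log2 without drug and 7.11 and 7.16 with YM155. Untreated replicate 1 was high and untreated replicate 2 low, with both YM155 arrays between them, so the difference of −0.14 ± 0.43 (SE; by limma, adjusted p = 0.941) was −0.77 against untreated replicate 1 and 0.50 against untreated replicate 2. In the other KLF3 probe sets the untreated arrays had the opposite order. In 219657_s_at they read 5.58 and 6.38, and the YM155 arrays 5.34 and 4.90, which put both YM155 arrays below both untreated arrays by a difference of −0.86 ± 0.32 (SE; by limma, unadjusted p = 0.047, adjusted p = 0.443 over all probe sets). In 225140_at the values were 4.31 and 5.02 without drug and 4.10 and 4.19 with YM155, and in 222913_at 5.41 and 5.62 without drug and 5.21 and 5.39 with YM155. Neither overlapped, with differences of −0.52 and −0.21, of which −0.17 and −0.11 remained against untreated replicate 1.

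KLF12, a repressor first described at the gene of AP-2 alpha, was near 0 in each of its 3 tested probe sets. In 227261_at the arrays read 5.66 and 6.08 log2 without drug and 5.85 and 6.01 with YM155, a difference of 0.063 ± 0.19 (SE; by limma, adjusted p = 0.938). The values overlapped in 214276_at as well, at 5.18 and 5.19 without drug and 5.28 and 4.74 with YM155 (difference −0.18), and 206966_s_at lay between 4.07 and 4.24 on all arrays (difference −0.082). Its other 5 probe sets did not reach the limit.

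In the SIN3A-binding group, 8 of 12 probe sets reached the limit, of which 2 had positive and 6 negative differences, with 1 higher without overlap (KLF11) and 3 lower (all KLF13), against 19.4% and 23.9% of all probe sets. KLF13, a regulator of the chemokine RANTES in T cells, had negative differences in all 4 probe sets. The brightest, 225390_s_at, read 7.46 and 7.91 log2 without drug and 7.27 and 7.27 with YM155, a difference of −0.42 ± 0.19 (SE; by limma, adjusted p = 0.461), with the YM155 arrays below both untreated arrays. The distance to untreated replicate 1 was −0.19 and that to untreated replicate 2 was −0.64. The same order held in 219878_s_at, at 5.10 and 5.69 without drug and 5.04 and 4.96 with YM155, and in the dim 230094_at, at 3.42 and 3.63 against 3.39 and 3.24, whereas 1564463_at overlapped between groups.

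KLF10 and KLF11, both known as early genes of transforming growth factor beta (TGF-beta), did not share a direction. KLF10 had 1 probe set, 202393_s_at, at 7.56 and 7.69 log2 without drug and 7.15 and 7.72 with YM155. Its YM155 arrays stood 0.57 apart and enclosed the untreated arrays, and the difference was −0.20 ± 0.23 (SE; by limma, adjusted p = 0.774). KLF11 was at 5.79 and 5.94 without drug and 6.05 and 6.19 with YM155 at 218486_at, without overlap and with a difference of 0.25 ± 0.14 (SE; by limma, adjusted p = 0.539). Its other probe set, 1553137_s_at, was below the limit.

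KLF9, which glucocorticoids and thyroid hormone induce in many tissues, was dim. Of its 5 probe sets 2 reached the limit, 203541_s_at at 4.74 and 4.52 log2 without drug and 4.48 and 4.63 with YM155, and 228474_s_at at 4.33 and 3.94 without drug and 4.11 and 4.21 with YM155. Both overlapped between groups, with differences of −0.079 ± 0.15 and 0.022 ± 0.18 (SE).

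**Figure D3:**
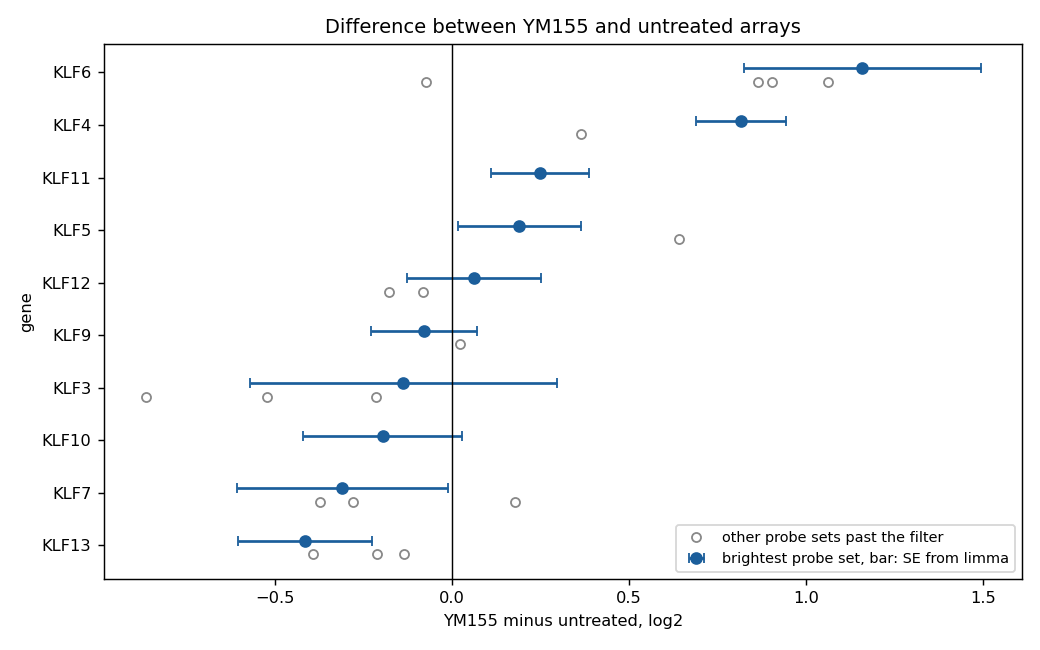
Difference in log2 signal between YM155 and untreated arrays (x axis) for each KLF gene (y axis); filled points are the brightest probe set with its SE from limma (2 arrays per group), open circles are the gene's other probe sets past the filter limit. KLF6 and KLF4 lie at 1.16 and 0.82, and the probe sets of KLF6, KLF7, KLF9 and KLF12 fall on both sides of 0.

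Over all members, 28 probe sets reached the limit and 10 did not. Of the 28, 12 had positive and 16 negative differences, and 0 passed the adjusted threshold, as did 0% of all probe sets. Of the 28, 6 were higher and 6 lower without overlap, which is near the shares of 19.4% and 23.9% over all probe sets. The 6 lower include 230094_at of KLF13, which reached the limit only through its untreated mean. At an unadjusted p under 0.05 there were 5, of which 4 were higher and 1 lower, where 5.03% of probe sets were higher and 6.06% lower. The untreated arrays differed in these genes too. Untreated replicate 2 was above untreated replicate 1 at 22 of the 28 probe sets, against 48.6% of all probe sets past the limit, and in 7 of the 10 members' brightest probe sets, against 44.9% of genes. Without untreated replicate 1, limma called 4.30% of genes higher and 3.71% lower. Among the members, KLF4 rose (0.79, adjusted p = 0.0492) and KLF7 fell (−0.73, adjusted p = 0.0492) in that fit, whose single untreated array takes its spread from the YM155 pair, while KLF6 had a difference of 0.69. For both, adjusted p ran from 0.0492 to 1 over the single arrays left out, and in the test of all probe sets the same probe sets had adjusted p of 0.0778 and 0.0785 without untreated replicate 1. Without untreated replicate 2, 0% of genes and 0 members were called.

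**Figure D4:**
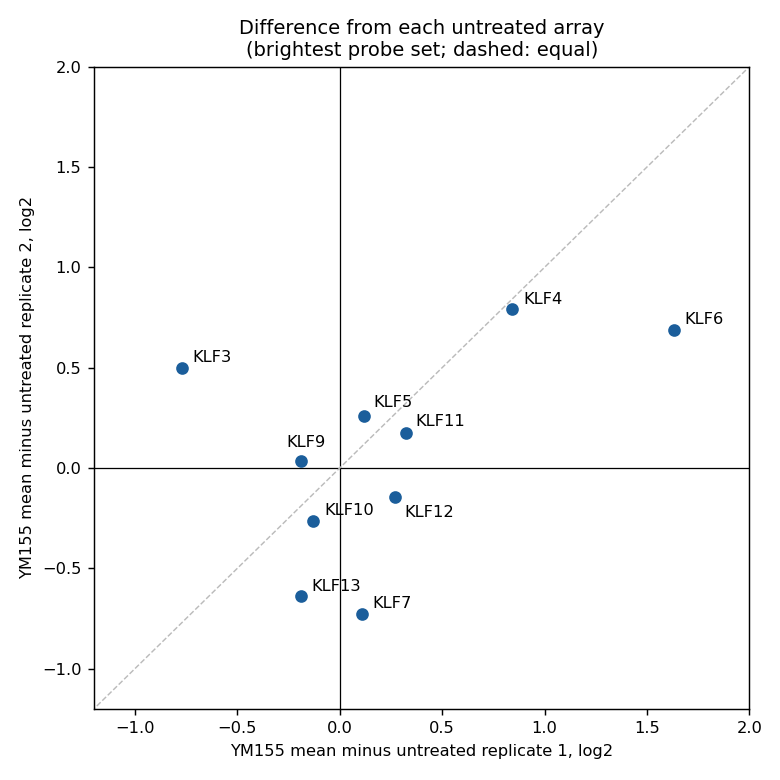
Mean of the 2 YM155 arrays minus untreated replicate 1 (x axis) and minus untreated replicate 2 (y axis), in log2, for the brightest probe set of each KLF gene; on the dashed line both untreated arrays give the same difference. KLF4 lies close to the line at 0.84 and 0.79, KLF6 lies at 1.63 and 0.69, and KLF3, KLF7, KLF9 and KLF12 have a different sign against each untreated array.

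The lists that follow are read against all genes tested, of which 47.1% had positive differences, 19.3% were higher and 25.6% lower without overlap, and 5.23% were higher and 7.48% lower at an unadjusted p under 0.05. The other members of the SP and KLF family did not pass the test either. Of 16 genes in that list, 15 had a probe set and 11 were tested, with 4 positive and 7 negative differences, a median of −0.16 log2, 2 higher and 3 lower without overlap, and 0 past limma's adjusted threshold. At an unadjusted p under 0.05 there were 2, SP1 lower and SP2 higher. SP1, the widely expressed GC-box activator, was at 8.50 and 9.11 log2 without drug and 8.18 and 7.81 with YM155, a difference of −0.81 ± 0.26 (SE; by limma, adjusted p = 0.335). SP2 was at 7.19 and 6.90 without drug and 7.58 and 7.51 with YM155 (difference 0.50), and SP3, which competes with SP1 for GC boxes, at 8.94 and 8.76 against 8.94 and 9.51 (0.37). The groups did not overlap for SP2, and for SP3 the nearest arrays of the groups were level to 2 decimals. KLF2, a factor of endothelial quiescence, resembled KLF7 in its spread, at 5.57 and 7.42 without drug and 5.90 and 5.93 with YM155 (difference −0.58 ± 0.62 SE).

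Genes for the partners and turnover of KLF proteins went both ways. Of 17, 15 were tested, with 9 positive and 6 negative differences, a median of 0.043, 4 higher and 4 lower without overlap, and 0 past limma's adjusted threshold. Only SIN3A had an unadjusted p under 0.05. SIN3A, the corepressor scaffold that KLF9, KLF10, KLF11 and KLF13 bind, was at 8.11 and 8.24 log2 without drug and 7.58 and 7.42 with YM155, a difference of −0.68 ± 0.14 (SE; by limma, unadjusted p = 0.00547, adjusted p = 0.232). SIN3B had a difference of −0.30 in the same direction. CTBP1 and CTBP2, the corepressors of KLF3 and KLF12, had differences of 0.036 and 0.043 with overlapping arrays. The acetyltransferase genes CREBBP, at 7.74 and 6.39 without drug and 7.94 and 8.12 with YM155, and EP300, at 6.23 and 5.69 against 6.44 and 6.27, had differences of 0.96 and 0.39, with untreated replicate 2 the low array in both. BTRC, a subunit of a ubiquitin ligase, overlapped at 6.59 and 5.61 against 6.43 and 6.37.

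Squamous differentiation genes, some of which KLF4 is known to regulate, mostly had positive differences. Of 20, 14 were tested, with 11 positive and 3 negative differences, a median of 0.15, 8 higher and 1 lower without overlap, and 0 past limma's adjusted threshold, although 5 had an unadjusted p under 0.05, all higher. The cornified envelope genes SPRR3, at 3.89 and 4.63 log2 without drug and 5.20 and 5.92 with YM155, SPRR1B (difference 1.20) and SPRR1A (0.76) and the membrane protein gene EMP1 (0.89) had the largest differences. The list's median was 0.13 against untreated replicate 1 and 0.33 against untreated replicate 2. The genes named above had the opposite order, at 1.67 and 0.93 for SPRR3 and 1.72 and 0.67 for SPRR1B. For EMP1 these differences were 1.26 and 0.51, and for SPRR1A 1.04 and 0.48. KRT13 had the order of the median, at 0.44 and 0.81. Among the 8 higher without overlap were CDSN and LORICRIN, dim genes with differences of 0.14 and 0.12.

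TGF-beta pathway genes had no common direction, with 6 of 15 tested genes positive, 9 negative and a median of −0.074, and 5 higher and 4 lower without overlap. The receptor gene TGFBR1 was at 7.85 and 8.04 log2 without drug and 8.53 and 9.09 with YM155, a difference of 0.87 ± 0.23 (SE), and the SMAD corepressor gene SKI at 9.44 and 9.10 against 10.01 and 10.07, a difference of 0.77 ± 0.16 (SE). The ligand gene TGFB2 had a difference of −0.61 ± 0.13 (SE) and the coreceptor gene TGFBR3 one of −0.56 ± 0.16 (SE). None of the 15 passed the adjusted threshold, and 5 had an unadjusted p under 0.05, 3 higher and 2 lower.

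The list of the glucocorticoid receptor gene NR3C1 and its targets, to which KLF9 belongs in many tissues, was also mixed. Of its 9 genes tested, 6 were positive and 3 negative with a median of 0.18 (the value of NR3C1), and 5 were higher and 2 lower without overlap. By limma, 0 passed the adjusted threshold, and 4 had an unadjusted p under 0.05, 3 higher and 1 lower. SGK1, a serum and glucocorticoid regulated kinase, was at 8.86 and 9.20 log2 without drug and 10.69 and 10.65 with YM155, a difference of 1.64 ± 0.16 (SE; by limma, adjusted p = 0.163). TSC22D3, the glucocorticoid-induced leucine zipper, went the other way, at 8.73 and 8.40 without drug and 7.13 and 7.31 with YM155, a difference of −1.35 ± 0.17 (SE; by limma, adjusted p = 0.163). ERRFI1, an inhibitor of EGF receptor signaling, had a difference of 0.75 and the MAP kinase phosphatase gene DUSP1 one of 1.85.

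Early response genes, the class of rapidly induced genes in which KLF4, KLF6 and KLF10 are often counted, differed between the untreated arrays in the same direction as KLF6. Untreated replicate 2 exceeded untreated replicate 1 by 0.74 log2 in median over the 22 genes tested, against −0.038 over all genes, and by 0.94 in KLF6 but 0.051 in KLF4 and 0.13 in KLF10. Of the 22, 17 had positive and 5 negative differences after YM155, with a median of 0.69, which was 1.20 against untreated replicate 1 and 0.093 against untreated replicate 2. Groups did not overlap for 11 higher and 3 lower genes; by limma 0 passed the adjusted threshold, and 9 had an unadjusted p under 0.05, 8 higher and 1 lower. MYC was at 8.30 and 9.13 without drug and 10.35 and 9.84 with YM155, the orphan receptor gene NR4A3 at 4.20 and 4.64 against 6.73 and 5.64, and the matricellular protein gene CCN2 at 4.64 and 8.08 against 8.30 and 7.82. The part of this spread in the KLF6 values was not tested.

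The genes closest to KLF6, KLF4 and KLF13 over the 4 arrays were found by the Euclidean distance between log2 values centred on each gene's own mean. With only 4 arrays such likeness is a description. Nearest to KLF6 were SERTAD1 (distance 0.19), at 5.72 and 6.86 log2 without drug and 7.50 and 7.50 with YM155, ZNF365 (0.20) and METRNL (0.20), where KLF6 itself lay 1.34 from its own mean. Nearest to KLF4 were RAP2B (0.065), at 9.45 and 9.42 without drug and 10.27 and 10.20 with YM155, the gap junction gene GJB2 (0.078) and SAMD9 (0.092), with KLF4 0.82 from its own mean. Nearest to KLF13, which lay 0.52 from its mean, were KLHL13 (0.0086), WDR54 (0.011) and NAT16 (0.013).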

How the data were processed

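Each array's deposited intensity values, 1 for every probe set, come from RMA (robust multi-array averaging), as the submitters' processing notes name it; version and settings: not given in the sources used here. The intensity values ran from 2.42 to 15214 and were linear, and their log2 was used. Arrays already shared a distribution (medians 16.0 to 16.3), so a shift common to all genes is not measured. The number of arrays limits the precision.

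Of 54675 probe sets, 62 controls were left out, and 41091 had 1 symbol in the platform annotation, 1801 several and 11721 none; 41037 matched a RefSeq gene ID, and 0 symbols changed. Probe sets with a mean log2 value below the 40th percentile (3.32) were not tested. Genes (brightest probe set) and, separately, all probe sets were tested with limma 3.58.1 in R 4.3.3 (lmFit, eBayes; two-sided; the model held the group alone; 2 residual degrees of freedom, Benjamini-Hochberg over 14043 genes or 32768 probe sets, threshold 0.05). The fit was tested on simulated data. Differences are YM155 minus untreated.

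Members and lists were chosen with earlier results of these data known; lists were described, not tested. Named are all members, up to 4 genes per list by absolute difference, the markers, up to 3 members' 3 nearest genes, and SIN3B, CTBP1, CTBP2 and NR3C1, added after their values were seen. KRT13, CDSN, LORICRIN, EGR3, SP5, KLF15 and KLF17 were likewise named after their values were seen. Of the other cell types' markers, the 2 brightest by mean were COL1A1 and PDGFRB (fibroblast, 6.16 and 4.46 log2), CD3E and LYZ (leukocyte, 3.75 and 2.40), PECAM1 and VWF (endothelial, 4.29 and 3.93), and PGC and CDX2 (glandular, 4.16 and 4.04). Promoters came from RefSeq (GRCh38.p14). Alternatives were other filters, probe set choices, normalizations, eBayes with trend and robust, a replicate block and each array left out.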

Additional observations from a re-analysis of the deposited data

How the results depend on the processing

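The number of genes past the adjusted threshold was 0 with all 4 arrays under every filter, probe set rule, normalization and variance setting tried, and between 0 and 1125 when single arrays were left out, with calls only without untreated replicate 1; members called numbered 0 to 2 and member probe sets stayed at 0. With the replicate number as a block, 0 genes, 0 members and 0 member probe sets passed; the labels do not say that the numbers pair the arrays, and the correlation of same-numbered deviations over genes was 0.00036. KLF4, KLF5, KLF6, KLF11 and KLF13 kept their sign under every setting in which they could be computed, but with single arrays left out KLF5 lay between 0.013 and 0.37, KLF6 between 0.69 and 1.63 and KLF13 between −0.64 and −0.19. KLF9 had no probe set above the 60th percentile. With only probe sets lacking the _x_at or _s_at suffix, KLF4, KLF9 and KLF10 had none. Under that rule KLF5 was 0.64 and KLF13 −0.14. With the mean of probe sets KLF12 turned to −0.065, and KLF3 was −0.43, KLF5 0.42, KLF7 −0.20 and KLF9 −0.028; a second quantile normalization gave 0.10 for KLF12. Over the arrays left out the difference changed sign for KLF3 (−0.77 to 0.50), KLF7 (−0.73 to 0.11), KLF9 (−0.19 to 0.033), KLF10 (−0.48 to 0.087) and KLF12 (−0.15 to 0.27), and for the probe sets 1555420_a_at (−1.07 to 0.51), 238482_at (−1.22 to 0.48) and 240432_x_at (−0.0085 to 0.37) of KLF7, 1564463_at of KLF13 (−0.27 to 0.00054), 211610_at of KLF6 (−0.24 to 0.093), 228474_s_at of KLF9 (−0.17 to 0.21) and 214276_at of KLF12 (−0.45 to 0.092); the cause was not tested. The median of the TGF-beta list was 0.11 against untreated replicate 1 and −0.057 against untreated replicate 2, that of the KLF partner list 0.011 and 0.19, and that of the other SP and KLF genes 0.11 and −0.21. Signal near the filter limit was not shown to exceed background, which limits KLF9 and the dimmest probe sets of KLF6, KLF12 and KLF13. The same limit applies to dim genes of the lists, among them SP5, KLF15, KLF17, CDSN, LORICRIN and EGR3.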

Other observations

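Noncoding transcripts that carry the names of members were dim. KLF3-AS1, antisense to KLF3, was read by 2 probe sets at 2.77 and 3.17 log2 and at 2.40 and 2.07 in untreated arrays, and KLF9-DT, divergent to KLF9, by 1 at 2.53 and 2.25 without drug and 2.62 and 2.56 with YM155. All 3 probe sets lay below the limit of 3.32 and were not tested.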
